A study of Danio rerio with 10 samples.

Results

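RNA of zebrafish (Danio rerio) embryos at the shield stage, an early gastrula, was compared with RNA of embryos at the dome stage, a late blastula. The comparison used 4 of the 10 libraries of the study: shield nuclear, shield cytosolic, dome nuclear and dome cytosolic. All came from wild-type AB embryos with no treatment, pooled and stripped of their chorions. Cells were released from the yolk into a lysis buffer and spun. The liquid above the pellet is the cytosolic fraction, and the pellet, washed, is the nuclear one. There was 1 library per fraction and stage, so the 2 fractions stand in for replicates. Transcripts with 10 or more counts in 2 or more of the 4 libraries were kept, which left 8771 of 16383. In total, 128 of them had exactly 10 counts in their second-highest library, and 134 transcripts with 9 there were left out.

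A zebrafish embryo starts on RNA that the mother loaded into the egg. Transcription of its own genome begins on a large scale around the mid-blastula stages, while many maternal RNAs are degraded, a handover known as the maternal-to-zygotic transition. Between dome and shield the cell sheet spreads over the yolk, the germ layers form and the shield itself, the fish counterpart of the amphibian organizer, appears on the dorsal side.

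Total counts at shield were 5909037 for the nuclear and 7990172 for the cytosolic library, against 13285467 and 11590909 at dome. At these depths 3 counts equalled 0.508 and 0.375 CPM (counts scaled to a fixed library size, here 1e6) at shield, and 0.226 and 0.259 CPM at dome. Counts of 10 or more were found for 8078 transcripts in nuclear RNA and 7071 in cytosolic RNA at shield, against 8793 and 7942 at dome. The values are counts per Ensembl transcript ID, and no table used here pairs these IDs with genes. Gene functions and cell type or fraction markers were therefore not analysed here, and transcripts are described as sets. In pooled embryos, fewer cells of a type and less RNA per cell cannot be told apart, and each value is relative to the library's other RNA.

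The stage comparison was first tested across both fractions. In edgeR's quasi-likelihood test with fraction as a block and TMM scaling, which adjusts library sizes for composition, 557 of 8771 transcripts passed an adjusted p-value of 0.05, which is 6.35%. Of these, 294 (3.35%) rose and 263 (3.00%) fell at shield, and 2413 had an unadjusted p-value under 0.05. All 294 that rose and all 263 that fell were changed 2-fold or more in both fractions. The fractions serve as the replicates, so the test favours transcripts changed alike in both, and this is no separate measure of agreement. The median log2 change (log2 CPM at shield minus log2 CPM at dome) of those that rose was 4.91 in nuclear and 5.16 in cytosolic RNA. For those that fell it was -4.06 in nuclear and -3.50 in cytosolic RNA. The smallest change of any called transcript in either fraction was 2.02 among the rises and -2.003 among the falls. The test has 1 residual degree of freedom, and its p-values measure only the disagreement between 2 fractions. With a minimum of 50 counts, or without fraction in the model, edgeR called 0 transcripts (2061 and 2351 at an unadjusted p-value under 0.05), while DESeq2 called 2062 with the reported filter and block. A fit of all 10 libraries called 1898 (602 higher, 1296 lower), and 2898 (721 higher, 2177 lower) without the shield cytosolic library. It called 2487 (786 higher, 1701 lower) without the shield nuclear, 527 (107 higher, 420 lower) without the dome nuclear and 312 (49 higher, 263 lower) without the dome cytosolic library.

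Differences of 2-fold or more, counted without a test, were far more frequent. In nuclear RNA, 2607 transcripts (29.7%) were at least 2-fold higher at shield and 2940 (33.5%) at least 2-fold lower. In the cytosolic fraction 2164 (24.7%) were higher and 3035 (34.6%) were lower. The spread was similar in both fractions. The middle 50% of transcripts lay between log2 changes of -1.57 and 1.30 in the nuclear fraction and between -1.58 and 0.97 in the cytosolic fraction. Just outside the threshold, at log2 changes of 0.9 to 1, lay 134 of the nuclear and 146 of the cytosolic values, and just inside it, at 1 to 1.1, lay 147 and 116. On the falling side 119 nuclear and 121 cytosolic values lay just outside, and 144 and 151 just inside.

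The 2 fractions mostly differed from dome in the same direction. In both fractions at once, 1406 transcripts (16.0%) were 2-fold or more higher at shield and 2013 (23.0%) were 2-fold or more lower. The 1406 made up 53.9% of the nuclear and 65.0% of the cytosolic transcripts on the higher side. The 2013 made up 68.5% of the nuclear and 66.3% of the cytosolic transcripts on the lower side. Across all 8771 transcripts, 73.6% had the same sign in both fractions (95% Wilson interval 72.7 to 74.5%, which treats transcripts as independent draws). Pearson's r between the nuclear and the cytosolic log2 change was 0.647 and Spearman's rho was 0.634, across transcripts, which are not independent replicates. Among the 3986 transcripts with 50 or more counts in all 4 libraries, r was 0.751 and 76.6% had the same sign. The edgeR calls covered 20.9% of the 1406 and 13.1% of the 2013.

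**Figure D1:**
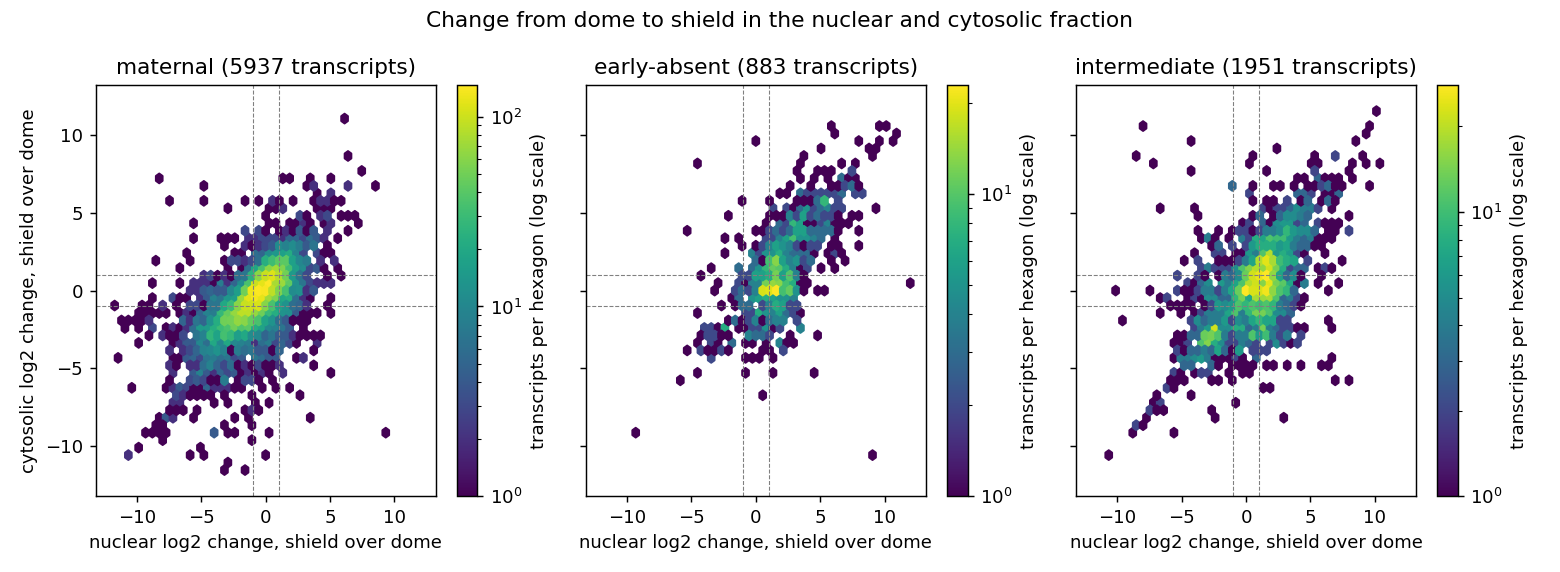
Each panel plots the log2 change from dome to shield in the nuclear fraction (x axis) against that in the cytosolic fraction (y axis) for 1 set of transcripts defined by detection at the 64-cell and 256-cell stages, with hexagons coloured by the number of transcripts on a log scale and dashed lines at 2-fold. Of the 5937 maternal transcripts 28.0% lie 2-fold or more below 0 on both axes, and of the 883 early-absent transcripts 43.5% lie 2-fold or more above 0 on both.

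The same measures can be set beside those of the preceding step, in which dome was compared with 1000-cell embryos. On a common scaling over 10 libraries, 1566 transcripts were 2-fold or more higher and 1843 lower in both fractions at shield against dome, of 8771 kept. At dome against 1000-cell, 1105 were higher and 289 lower in both fractions, of 8236 kept by the same rule. The nuclear and the cytosolic change correlated at r = 0.644 for shield against dome and at 0.465 for dome against 1000-cell. The same sign was found for 74.3% and 68.0% of transcripts. The standard deviations of the nuclear and cytosolic changes were 2.53 and 2.44 at the later step and 1.77 and 1.77 at the earlier one. The part of this spread in the differing agreement was not tested. Transcripts lower in both fractions thus outnumbered those higher at the later step and not at the earlier one. The nuclear libraries had 13285467 counts at dome, 5909037 at shield and 7662026 at 1000-cell, and the cytosolic ones 11590909, 7990172 and 11715817. At the later step, 757 transcripts had 10 or more counts in both dome libraries and under 10 in both shield ones. For 271 it was the opposite. Among those with 10 or more in all 4, 1101 were lower and 822 higher in both fractions with 4-library scaling. The part of depth and filter in this contrast was not tested. The comparisons share the dome libraries, and the difference between them was not tested.

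Loss of maternal and gain of new RNA were separated with the 64-cell and 256-cell libraries, which play no part in the comparison of shield with dome. Transcripts with 10 or more counts in all 4 of these cleavage libraries were called maternal, and 5937 of 6025 such transcripts were kept. Transcripts with 3 or fewer counts in each were called early-absent, and 883 of 6947 were kept. The other 1951 kept transcripts, of 3411, were called intermediate. The maternal label says only that the RNA was there early, and later synthesis adds to the same counts.

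Maternal transcripts made up most of the losses. At shield 1664 maternal transcripts (28.0%) were 2-fold or more lower in both fractions and 478 (8.05%) were 2-fold or more higher, beside 23.0% and 16.0% of all kept transcripts. They accounted for 82.7% of all transcripts lower in both fractions and for 67.7% of all kept transcripts. In edgeR's test 234 maternal transcripts (3.94%) fell and 86 (1.45%) rose, beside 3.00% and 3.35% of all. Their median log2 change was -0.60 in nuclear and -0.45 in cytosolic RNA, against -0.10 and -0.19 for all kept transcripts. Relative to all, the maternal median was lower by 0.50 on the log2 scale in nuclear and by 0.26 in cytosolic RNA. Not all were lower, as 36.1% of maternal transcripts had a log2 change above 0 in nuclear and 38.6% in cytosolic RNA. Among all kept transcripts these shares were 47.9% and 44.6%. The count filter shapes the maternal set. In total, 393 members had 10 or more counts in both dome libraries and under 10 in both shield libraries. The opposite held for 7. Among the 4897 with 10 or more counts in all 4 libraries, 21.8% were lower and 9.23% higher in both fractions. For all 5808 transcripts with such counts, the shares were 19.0% and 14.2%. The medians of the 4897 were -0.39 in nuclear and -0.21 in cytosolic RNA, against -0.12 and -0.01 for the 5808.

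Early-absent transcripts lay on the other side. In both fractions 384 of the 883 kept (43.5%) were 2-fold or more higher at shield and 48 (5.44%) were 2-fold or more lower, beside 16.0% and 23.0% of all kept transcripts. edgeR's test called 87 of them (9.85%, beside 6.35% of all), and 86 of the calls were rises. Their median log2 change was 1.84 in nuclear and 1.07 in cytosolic RNA. With counts under 3 set to 3, so that zeros count only as a bound, the medians were 1.91 and 1.21. The count filter shapes this set, since 162 of its members had 10 or more counts in both shield libraries and under 10 in both dome libraries and so had to differ. Another 54 were kept the opposite way, with 10 or more counts in both libraries at dome and under 10 in both at shield. Among the 204 with 10 or more counts in all 4 libraries the medians were 1.62 and 1.04, with 42.2% higher and 2.45% lower in both fractions. Of the 384 higher in both fractions, 97 had 0 counts in both dome libraries and 86 already had 10 or more in both.

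The intermediate set held transcripts seen early in some libraries or at a few counts. Of its 1951 members, 544 (27.9%) were 2-fold or more higher and 301 (15.4%) lower in both fractions, beside 16.0% and 23.0% of all kept transcripts. edgeR called 122 rises (6.25%, beside 3.35% of all) and 28 falls (1.44%, beside 3.00%). The median log2 change was 1.05 in nuclear and 0.22 in cytosolic RNA. By the count filter, 310 members had 10 or more counts in both dome libraries and under 10 in both shield libraries, and 102 the opposite. Among the 707 with 10 or more counts in all 4 libraries the medians were 1.47 and 1.05, with 40.2% higher and 3.82% lower in both fractions. In each of the 3 sets the 2 fractions agreed in sign for most transcripts: 75.7% of maternal, 71.0% of early-absent and 68.6% of intermediate transcripts. Of the early-absent transcripts that were 2-fold higher, the shared ones made up 62.1% of the nuclear list but 86.1% of the cytosolic list. Among all kept transcripts the shared ones were 53.9% and 65.0%, in the intermediate set 54.8% and 74.7%, and in the maternal set 48.0% and 48.3%. More early-absent transcripts passed 2-fold on the higher side in the nuclear fraction (618) than in the cytosolic fraction (446). The same held for all kept transcripts (2607 and 2164) and the intermediate set (993 and 728), while the maternal set had 996 and 990. The nuclear shield library was the shallower, and the cytosolic shield library had the lower scaling factor. With library totals in place of TMM, the early-absent medians were 1.89 in nuclear and 0.71 in cytosolic RNA, against 1.84 and 1.07. The part of depth or scaling in the differing numbers was not tested.

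**Figure D2:**
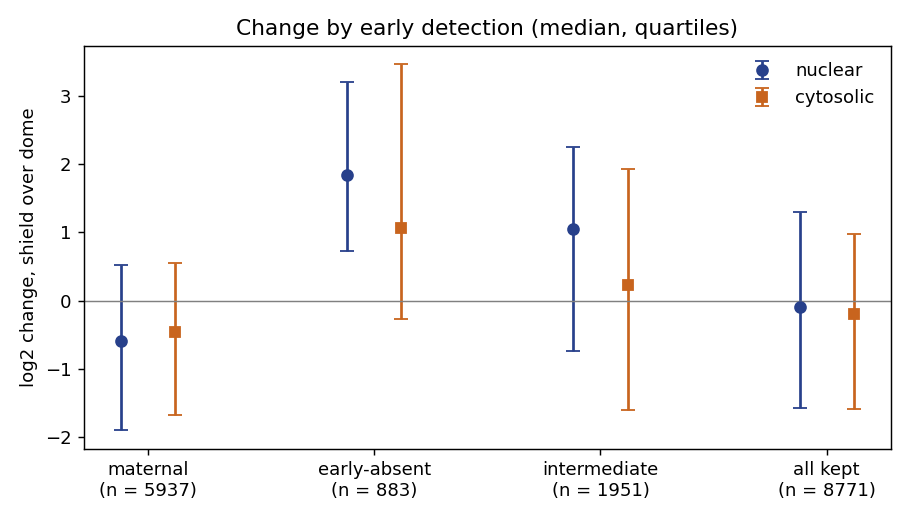
Points are the median log2 change from dome to shield (y axis) of each set of transcripts (x axis) in the nuclear (circles) and cytosolic (squares) fraction, and bars run from the lower to the upper quartile over transcripts. Medians of the maternal set were -0.60 and -0.45, and those of the early-absent set were 1.84 and 1.07.

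The shift was visible in the share of sequenced counts each set held. Each share sums all members of a set, kept or not, which for the early-absent set is 6947 transcripts. Maternal transcripts held 88.1% of the nuclear and 92.3% of the cytosolic counts at shield, against 94.98% and 97.2% at dome. Early-absent transcripts held 2.82% of the nuclear counts at shield (95% Wilson interval 2.81 to 2.83%, counting error only), against 0.702% at dome (0.698 to 0.707%). In the cytosolic fraction they held 1.44% at shield (1.43 to 1.44%), against 0.446% at dome (0.442 to 0.450%). The intermediate set held 9.04% of the nuclear and 6.28% of the cytosolic counts at shield, against 4.32% and 2.40% at dome. Along the 5 stages in order, the nuclear share of early-absent transcripts was 0.00543%, 0.00996%, 0.124%, 0.702% and 2.82%. In the cytosolic fraction it was 0.00379%, 0.00665%, 0.243%, 0.446% and 1.44% in the same order. The nuclear share was thus above the cytosolic share at dome and shield and below it at the 1000-cell stage. A share sums counts, so few transcripts can carry it, and numbers detected at 1000-cell went the other way. Of the 384 early-absent transcripts higher in both fractions, 20 had 10 or more counts in nuclear and 6 in cytosolic RNA there. Of the 48 lower in both, 8 and 5 did. The early-absent shares at 64-cell and 256-cell are low by the way the set was chosen.

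**Figure D3:**
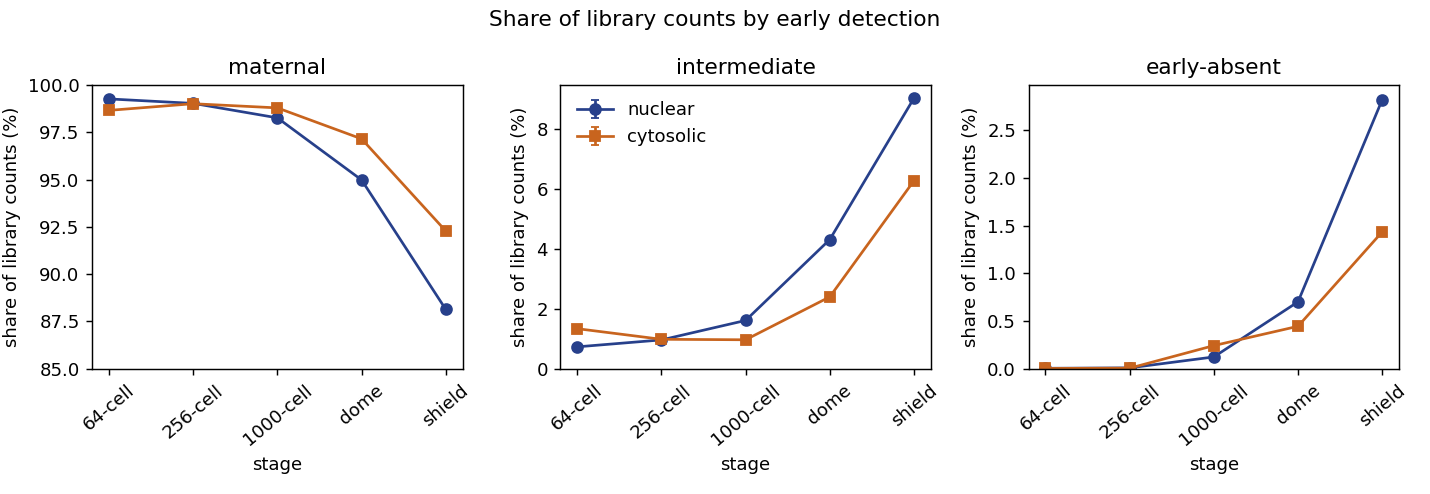
The share of each library's counts (y axis, percent) held by maternal, intermediate and early-absent transcripts is plotted over the 5 stages (x axis) for the nuclear (circles) and cytosolic (squares) library, with 95% Wilson intervals smaller than the symbols; the maternal axis starts at 85%. Each set includes its members that were not kept. At shield the maternal share was 88.1% in nuclear RNA and 92.3% in cytosolic RNA.

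The maternal transcripts that were lower in both fractions had nearly the same median levels at the 3 stages before dome. From the 64-cell stage to shield, the nuclear medians of these 1664 transcripts were 6.03, 5.94, 5.99, 5.57 and 2.74 log2 CPM. The cytosolic medians were 6.003, 5.96, 6.02, 5.77 and 3.46 log2 CPM. They held 5.19% of the nuclear and 5.63% of the cytosolic counts at shield, against 24.7% and 27.4% at dome. At the 3 earlier stages their share was 31.2 to 33.1% in all 6 libraries. Most remained detectable, as 1143 had 10 or more counts in nuclear RNA and 1248 in cytosolic RNA at shield, while 309 and 249 had 0. These transcripts were chosen by their lower level at shield than at dome, and the maternal set by the 64-cell and 256-cell libraries, so only the 1000-cell values are independent of the choice.

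The 478 maternal transcripts that were 2-fold or more higher in both fractions were less abundant early on. Their nuclear medians were 3.37, 3.47, 3.46, 4.15 and 6.71 log2 CPM along the 5 stages, and their cytosolic medians were 3.32, 3.37, 3.21, 3.58 and 6.19. They held 19.7% of the nuclear and 22.0% of the cytosolic counts at shield, against 5.60% and 4.62% at dome. They were chosen for a higher level at shield, which fixes the direction, while the maternal set as a whole held a smaller share at shield than at dome. The 3795 other maternal transcripts held 63.3% and 64.7% of the nuclear and cytosolic counts at shield, against 64.7% and 65.2% at dome. The 384 early-absent transcripts higher in both fractions had a median of 80.5 counts in nuclear RNA and 36 in cytosolic RNA at shield, against 11.5 and 0 at dome.

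**Figure D4:**
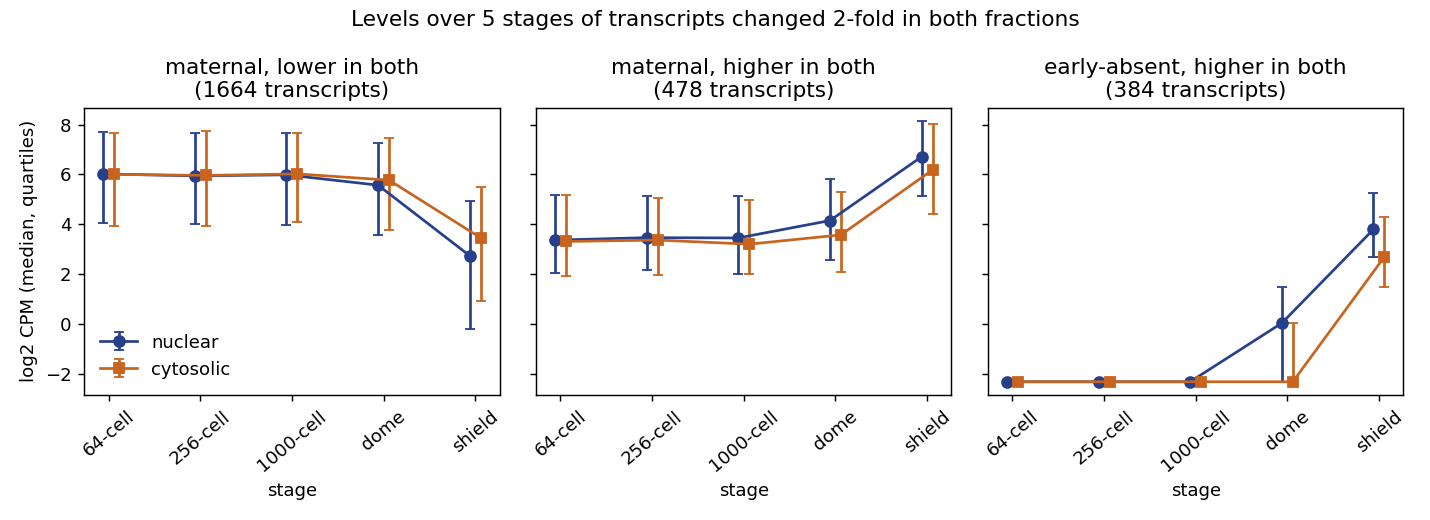
Median levels in log2 CPM (y axis) with lower and upper quartiles are plotted over the 5 stages (x axis) in the nuclear (circles) and cytosolic (squares) libraries, for 3 groups of transcripts chosen by their change from dome to shield. The 1664 maternal transcripts that were lower lay near 6 log2 CPM up to the 1000-cell stage and at 2.74 and 3.46 at shield; the lowest plotted level stands for 0 counts.

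Within the maternal set the change went with early abundance. The set was divided into 4 groups of nearly equal size by the mean level over the 64-cell and 256-cell libraries. In the group with the lowest early level the median log2 change at shield was 0.29 in nuclear and -0.11 in cytosolic RNA, and 19.9% were 2-fold or more lower in both. In the next group the medians were -0.64 and -0.40, with 28.0% lower in both. In the third group they were -0.78 and -0.59 with 30.8%, and in the group with the highest level -0.83 and -0.64 with 33.4%. The share that was 2-fold or more higher in both was, in the same order, 16.0%, 9.57%, 4.65% and 2.02%. Of all kept transcripts, 23.0% were lower and 16.0% higher in both. Low counts are noisier, and their part in the gradient with early abundance was not tested. Of 4 groups made by the early nuclear/cytosolic ratio, 28.5%, 31.9%, 28.8% and 22.9% were lower in both, in order from the most cytosolic to the most nuclear, and 9.29%, 5.86%, 5.997% and 11.1% were higher in both. The median log2 changes of the most nuclear group were -0.31 in nuclear and -0.20 in cytosolic RNA, against -0.76 and -0.64 in the second group. Low counts also make this ratio noisier, and the part of early abundance in the differences between these groups was not tested.

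The early-absent set was divided by its detection in the 1000-cell libraries, which are also independent of the comparison. The 85 transcripts with 10 or more counts in a 1000-cell library had a median log2 change of 1.17 in nuclear and 0.39 in cytosolic RNA. For the 798 others the medians were 1.92 and 1.18. In both fractions 28.2% of the 85 and 45.1% of the 798 were 2-fold or more higher. In the same order, 12.9% and 4.64% were 2-fold or more lower in both. Among all kept transcripts 16.0% were higher and 23.0% lower in both. The 85 and the 798 had to pass the count filter at dome or shield, and its part in their difference was not tested. Among members with 10 or more counts in all 4 libraries the medians were 1.24 and 1.03 for 37 of the 85. They were 1.75 and 1.05 for 167 of the 798. In both fractions 15 of the 37 and 71 of the 167 were 2-fold or more higher. The numbers 2-fold or more lower in both were 3 and 2. For all 5808 transcripts with such counts, 14.2% were higher and 19.0% lower in both.

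Complete appearance and disappearance at the depth of these libraries were also counted. In total, 135 transcripts had 10 or more counts in both shield libraries and 0 in both dome libraries, and 348 had the opposite pattern. Of the 135 that appeared, 97 were early-absent, 36 intermediate and the rest maternal, and their median counts at shield were 64 in nuclear RNA and 51 in cytosolic RNA. Of the 348 that disappeared, 172 were maternal, 152 intermediate and 24 early-absent, with median counts of 39 and 37.5 at dome. Maternal transcripts were thus 49.4% of the 348 and 67.7% of all kept transcripts, intermediate ones 43.7% and 22.2%, and early-absent ones 6.90% and 10.1%. Of the 135, 71.9% were early-absent and 26.7% intermediate. A count of 0 allows 3 counts, and the shield libraries, in which the 348 were at 0, were the shallower ones. edgeR's test called 63 of the 135 (46.7%) and 62 of the 348 (17.8%), beside 6.35% of all, and both groups were picked for a large difference in both fractions.

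Of the 144 early-absent transcripts that were 2-fold or more higher in both fractions with 50 or more counts in both shield libraries, 2 are named by the size of their mean change. ENSDART00000148891 had 3072 counts in nuclear RNA and 5291 in cytosolic RNA at shield, against 0 and 8 at dome. It had 0 counts in every earlier library except the cytosolic one at 1000-cell, with 7. Both shield values lay far above every other library. Against a floor of 3 counts at dome, the nuclear level was 2232-fold higher (lower end of its 95% exact interval 1814, counting error only). The cytosolic level was 1252-fold higher (95% exact interval 635 to 2902, counting error only). ENSDART00000076915 had 2126 nuclear and 1207 cytosolic counts at shield and 0 in all 8 earlier libraries. Against the same floor it was 1545-fold and 762-fold higher than at dome (lower ends of the 95% exact intervals 1255 and 619). Both transcripts were picked for a large change in the libraries tested, so a pass in the test is no separate support. Both rises passed edgeR's test with an adjusted p-value of 0.0164, and neither call held with a minimum of 50 counts, without fraction in the model, or in the 10-library fit without either dome library.

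Of the 1483 maternal transcripts that were 2-fold or more lower in both fractions with 50 or more counts in both dome libraries, 2 are named by the same rule. ENSDART00000125583 had 0 counts in both shield libraries, against 4213 nuclear and 4174 cytosolic counts at dome. Along the earlier stages it had 5068, 2679 and 2827 nuclear counts and 7915, 5718 and 8149 cytosolic counts. It was thus abundant in all 8 libraries up to dome and at 0 in both at shield. Against the floor of 3 counts in the shield library it was 644-fold lower in nuclear and 735-fold lower in cytosolic RNA. The lower ends of the exact intervals were 524 and 597, counting error only. ENSDART00000023163 had 0 counts in both shield libraries, against 4254 nuclear and 3933 cytosolic counts at dome. Against the same floor it was 650-fold and 692-fold lower (lower ends of the intervals 529 and 563). It had 4006, 3086 and 2674 nuclear and 4731, 4276 and 4724 cytosolic counts at the earlier stages. These 2 transcripts were likewise picked for a large change in the libraries tested. Both falls passed edgeR's test with an adjusted p-value of 0.0164, and neither call held with a minimum of 50 counts or without fraction in the model. How reads were divided among transcript models of 1 gene was not stated, so a single ID can change while its gene does not.

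**Figure D5:**
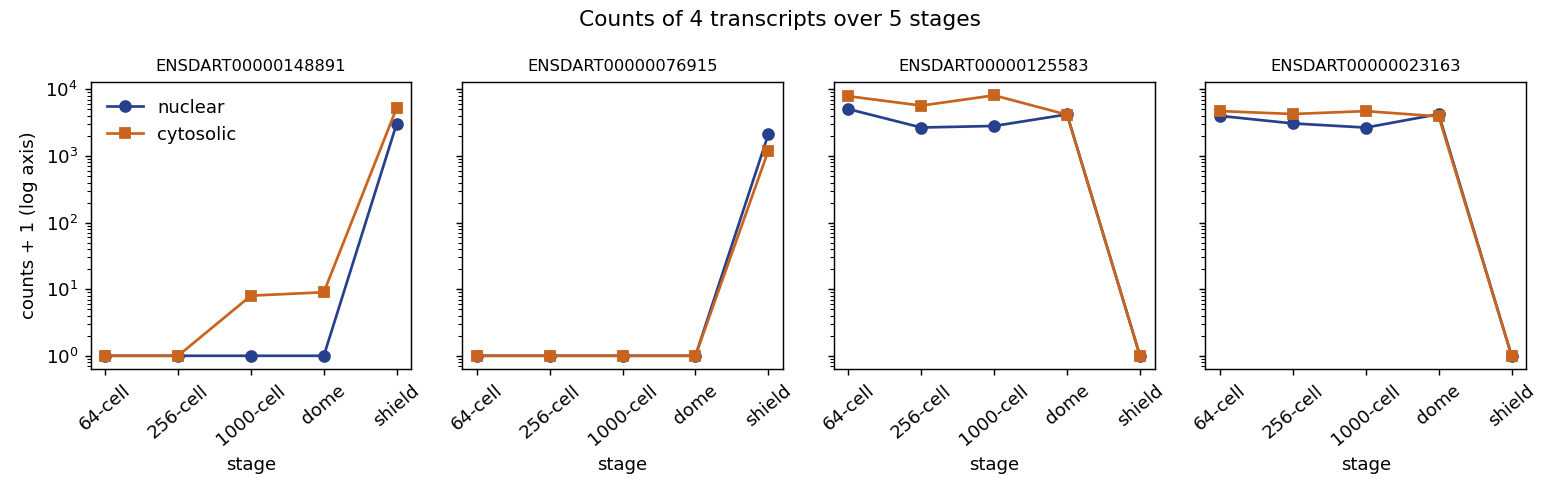
Counts plus 1 (y axis, log scale) of 4 named transcripts are plotted over the 5 stages (x axis) in the nuclear (circles) and cytosolic (squares) libraries. The left pair had 1207 to 5291 counts at shield and at most 8 before, and the right pair had 0 counts at shield and 3933 to 4254 at dome.

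A small group went opposite ways in the 2 fractions. In all, 322 transcripts (3.67%) were at least 2-fold higher in nuclear RNA and at least 2-fold lower in cytosolic RNA at shield, and 124 (1.41%) had the opposite pattern. The 322 had median counts of 68.5 in nuclear RNA and 1 in cytosolic RNA at shield, against 31 and 26 at dome. The 124 had 4.5 and 54 at shield, against 116.5 and 14.5 at dome. Both groups were chosen for opposite changes, which fixes the direction of the shift between fractions. In these unscaled counts the fractions were more unequal at shield in the first group and changed places in the second. Of the 322, 109 (33.9%) were maternal and 57 (17.7%) early-absent, and of the 124, 60 (48.4%) were maternal and 13 (10.5%) early-absent, beside 67.7% and 10.1% of all kept transcripts. Counts were low, as 26 of the 322 and 19 of the 124 had 50 or more counts in all 4 libraries. Whether the change differed between fractions was tested in edgeR on all 10 libraries, with the early stages giving the spread (2 residual degrees of freedom). In all, 24 of 8771 transcripts (0.274%) passed an adjusted p-value of 0.05, 19 of them with the lower change in nuclear RNA, and 0 of the 322 and 2 of the 124 were among them. With library totals in place of TMM, 24 passed, with 1 of the 322 and 2 of the 124. At an unadjusted p-value under 0.05 there were 1905 (21.7%), including 135 of the 322 and 56 of the 124, which were chosen by this difference. With 1 term for the difference in place of a term per stage, 0 passed and 402 had an unadjusted p-value under 0.05.

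Kept transcripts with 0 counts in 1 fraction and many in the other were more frequent at shield. At shield 58 of the kept transcripts had 100 or more counts in nuclear RNA and 0 in cytosolic RNA, against 31 at dome. In the other direction 45 had 100 or more cytosolic and 0 nuclear counts at shield, against 10 at dome. The shield libraries were the shallower ones, which makes a count of 100 harder and a count of 0 easier to reach. By the count filter, such a transcript was kept only with 10 or more counts in a library of the other stage. Transcripts seen in a single fraction of a single stage are therefore left out, and the part of the filter in these numbers was not tested.

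A few abundant transcripts took a larger part of the counts at shield. The 10 most abundant transcripts held 8.68% of the nuclear and 15.8% of the cytosolic counts at shield, against 5.05% and 4.88% at dome. All 10 of the nuclear and 9 of the 10 cytosolic ones at shield were in the maternal set, and 7 were shared by both lists. Of these lists, 7 of the nuclear and 6 of the cytosolic transcripts were 2-fold or more higher at shield in both fractions. In each, 0 were 2-fold or more lower in both. Each dome list held 10 maternal transcripts, with 3 higher in both fractions, and 2 of the nuclear and 1 of the cytosolic list lower. Of all kept transcripts 67.7% were maternal, 16.0% were higher and 23.0% lower in both. A list ranked by the counts of 1 stage favours transcripts that are higher at that stage. The most abundant transcript of the cytosolic shield library had 393971 counts there (4.93%) and 28579 in the nuclear library (0.484%), against 60610 (0.523%) and 30448 (0.229%) at dome. Its counts also varied between earlier stages, from 22448 at 1000-cell to 371187 at 256-cell in the cytosolic libraries. TMM scaling gave factors of 1.12 for the nuclear and 0.798 for the cytosolic library at shield, against 1.08 and 1.04 at dome. With library totals in place of TMM, the median log2 change of all kept transcripts was -0.05 in nuclear and -0.56 in cytosolic RNA, and the maternal median stayed below it by 0.50 and 0.27.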

How the data were processed

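Stranded total RNA libraries, depleted of ribosomal RNA by a kit for mammalian RNA, were sequenced from nuclear and cytosolic fractions at 5 stages, per the labels' protocols. The authors deposited 1 table of whole-number counts per Ensembl transcript ID. Trimmomatic 0.27, STAR 2.6.0a, StringTie and build Zv9 are named in the submitters' processing notes, without roles. The annotation release, the strand setting and how reads were divided among models of 1 gene are not given in the sources used here. Columns were matched to samples by stage and fraction, with 0 left unmatched. StringTie can derive counts from coverage, and whether it did so here is not stated. If it did, the values are estimates, and the intervals and count tests treat them as reads. Of 16383 IDs, 0 matched a gene table.

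Counts were tested with edgeR 4.0.16 (R 4.3.3), using the quasi-likelihood test, TMM scaling, fraction as a block and Benjamini-Hochberg adjustment. DESeq2 1.42.0 was an alternative. A test of whether the change differed between fractions, chosen after seeing the data, used all 10 libraries with a nuclear term for dome and for shield. Log2 changes used CPM after TMM with a prior count of 2. Levels over 5 stages and the comparison with 1000-cell used TMM over 10 libraries. Without gene names, 2 transcripts per direction were named, by the largest mean log2 change among those 2-fold changed in both fractions with 50 or more counts in both libraries of the higher stage. Members and sets were chosen with earlier results of these data known. Without molecular identifiers, intervals cover counting error only. Nothing says that fractions came from separate pools, and p-values measure only the spread between libraries. Scripts were tested on simulated data. Python 3.11.15, SciPy 1.17.1 and pandas 2.3.3 were used.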

Additional observations from a re-analysis of the deposited data

Results flagged for a closer look

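In 322 transcripts the nuclear library was 2-fold or more higher and the cytosolic library 2-fold or more lower at shield than at dome, so the fractions changed in opposite directions. In 124 transcripts the nuclear library was 2-fold or more lower and the cytosolic library 2-fold or more higher. The median log2 changes were 1.83 nuclear and -2.09 cytosolic in the 322, and -2.31 nuclear and 2.13 cytosolic in the 124. Each direction rests on 1 library per fraction and stage. In edgeR's test of the difference on all 10 libraries, 0 of the 322 and 2 of the 124 passed an adjusted p-value of 0.05 (1 and 2 with library totals, and 0 and 0 with 1 term for the difference), and 135 of the 322 and 56 of the 124 had an unadjusted p-value under 0.05.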

How the results depend on the processing

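The count of 557 edgeR calls depended most on the processing. It was 307 with library totals (150 higher, 157 lower), 0 with a minimum of 50 counts, 0 with no replicate block (stage only), 2062 with DESeq2 (960 higher, 1102 lower) and 1898 with all 10 libraries in the fit (602 higher, 1296 lower). At an unadjusted p-value under 0.05 the settings with 0 calls had 2061 and 2351. In the 10-library fit, leaving out 1 of the 4 libraries gave 312 (without the dome cytosolic library) to 2898 (without the shield cytosolic library), with 527 without the dome nuclear and 2487 without the shield nuclear library. The lone library of a stage is then assumed to vary like the other stages. The cause of these differences was not tested. No paired analysis by replicate number was possible because each group has 1 library, and fraction served as the block. Transcripts 2-fold changed in both fractions stayed within 1.5 times the reported counts, except at 4-fold, with 696 higher and 1018 lower. Same-sign agreement was 77.0% with a minimum of 50 counts and 75.3% with counts under 3 set to 3, an alternative chosen after seeing the data. The maternal median (mean of both fractions, -0.53) was -0.39 with RLE size factors, -0.69 with library totals, -0.36 with a minimum of 50 counts and -0.65 with sets at a minimum of 50 counts. The early-absent median (1.45) was 2.14 with a minimum of 50 counts. With sets at a minimum of 50 counts, maternal transcripts held 82.7% of nuclear and 89.0% of cytosolic counts at shield, against 91.3% and 95.2% at dome. Without the 10 most abundant transcripts of each library the shares were 87.0% and 91.6% at shield, against 94.7% and 97.0% at dome. The balance of edgeR calls turned from more rises (294 against 263) to more falls with library totals, with DESeq2 and in the 10-library fits, and was 279 higher against 180 lower with RLE size factors. The test of the difference between fractions, added after seeing the data, called 24 transcripts, and 0 with 1 term for the difference. The maternal and early-absent medians kept their sign, but the median nuclear change of all kept transcripts (-0.10) was 0.05 with RLE size factors. Depth limits the shield side, where 3 counts equal 0.508 CPM in the nuclear library.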
